A study of Mus musculus with 16 samples.

Results

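The genes described are 10 mitophagy genes, chosen by name from the 49585 Ensembl genes counted in each library: Bnip3, Bnip3l, Fundc1, Pink1, Bcl2l13, Phb2, Map1lc3a, Map1lc3b, Gabarapl1 and Sqstm1. All 10 were found and all 10 passed the filter on low counts in every comparison. RNA was sequenced from cells described as neutrophils, sorted from the bones of C57BL/6 mice 8 to 12 weeks old, in 16 libraries. P2KO (n = 4) was labelled as a conditional deletion of PHD2, the product of Egln1, with a Vav:cre transgene and floxed PHD2 alleles. P2H2KO (n = 4) was labelled as carrying the same Cre with floxed PHD2 and HIF2 alleles, so that PHD2 and HIF2α, the product of Epas1, were both to be lost. P2WT and P2H2WT (n = 4 each) were the wild-type controls of the respective line. Vav:cre acts in blood-forming cells, so the labelled deletions were not limited to neutrophils. What the controls carry beyond "wild type", and whether each library was a separate mouse, is not given in the sources used here. P values therefore measure the spread between these libraries.

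Mitophagy is the removal of mitochondria by autophagy. BNIP3, BNIP3L (also called NIX), FUNDC1 and BCL2L13 are receptors in the outer mitochondrial membrane, and PHB2 is a receptor of the inner membrane that becomes exposed when the outer membrane ruptures. PINK1 is a kinase that gathers on damaged mitochondria and marks them, with the ligase Parkin, for adaptors such as SQSTM1 (p62). Receptors and adaptors bind proteins of the ATG8 family on the forming autophagosome, to which MAP1LC3A, MAP1LC3B and GABARAPL1 belong. PHD2 hydroxylates the α subunits of the hypoxia-inducible factors HIF1 and HIF2 and so sends them to degradation, and BNIP3 and BNIP3L are widely described HIF targets. BNIP3L is also needed to clear mitochondria from maturing red blood cells.

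HIF binds DNA at a core written ACGTG or GCGTG. The promoter sequence of 8 of the 10 genes was found in RefSeq (build GRCm38.p6), and those of Bnip3l and Map1lc3a were not. In the 250 bases before the annotated start, read on both strands, Bnip3 and Map1lc3b held 5 core matches each, Pink1, Bcl2l13 and Phb2 held 1 each, and Gabarapl1, Sqstm1 and Fundc1 held 0. At least 1 match occurred in 38.6% of 32817 promoters of this length, and at least 5 in 1.01%. These shares were not matched for GC content, which was 72.4% in Bnip3, 69.6% in Map1lc3b and 46.8% to 63.2% in the others. Of the 5 in Bnip3, 2 overlap in the palindrome CACGTG, which is present in 6.02% of promoters and is also the E-box bound by other factors. The Bnip3 and Map1lc3b promoters are shown because they had equal numbers of matches and the 2 genes had different values in the comparisons below. Each is written 5′ to 3′ on the strand of the gene up to the first base of its gene model in GENCODE M21, with the core matches in capitals. Bnip3 is at chr7:138909520-138909756, minus strand (237 bases), and Map1lc3b at chr8:121590188-121590360, plus strand (173 bases, holding 4 of its 5 matches).
Bnip3: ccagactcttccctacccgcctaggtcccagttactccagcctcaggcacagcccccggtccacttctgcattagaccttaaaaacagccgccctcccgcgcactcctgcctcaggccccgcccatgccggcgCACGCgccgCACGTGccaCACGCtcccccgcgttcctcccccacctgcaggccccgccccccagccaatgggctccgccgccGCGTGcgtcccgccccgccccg
Map1lc3b: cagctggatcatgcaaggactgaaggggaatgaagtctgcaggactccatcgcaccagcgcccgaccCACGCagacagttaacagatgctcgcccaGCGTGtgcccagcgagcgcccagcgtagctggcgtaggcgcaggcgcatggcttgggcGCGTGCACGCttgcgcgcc
A match is only a run of letters, and binding was not measured. NRF2-type elements (TGACNNNGC) were in the promoter of Bcl2l13 alone among the 8, against 10.2% of all promoters, and the FOXO-type element GTAAACA was in 0 of the 8, against 3.16%.

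The libraries held 23450746 to 28601284 counts. The targeted genes did not separate the genotypes: in the P2 line Egln1 was at 43.2 to 58.4 CPM (the usual count scaled to library size, here with TMM factors) in P2KO and 45.9 to 51.3 in P2WT. In the P2H2 line it was at 49.2 to 58.8 CPM in P2H2KO and 47.9 to 54.6 in P2H2WT. Epas1 was at 3.42 to 8.39 CPM in P2H2KO and 2.55 to 4.97 in P2H2WT, and at 6.76 to 24.4 CPM in P2KO and 8.70 to 11.3 in P2WT. The control groups of the 2 lines thus did not overlap in Epas1, which was higher in P2WT. Counts over whole genes do not show single exons, so this did not check the deletions, and directions below rest on the labels. The RNA was not that of neutrophils alone. The 12 neutrophil markers (S100a8, S100a9, Ly6g, Ltf and others) summed to 32877 to 86175 CPM per library. The 14 erythroid markers matched of 15 listed (globins, Klf1, Slc4a1 and others), however, summed to 27161 to 55123 CPM, and all 14 had counts in every library. Ranges of the erythroid sum overlapped between the genotypes in both lines, at 27273 to 48936 CPM in P2KO, 33917 to 47113 in P2WT, 27161 to 51618 in P2H2KO and 39033 to 55123 in P2H2WT. P2KO replicate 6 and P2H2KO replicate 15 had the lowest erythroid sums. The 14 monocyte and macrophage markers summed to 2145 to 2388 CPM in P2KO, below the 2538 to 2933 CPM of P2WT without overlap, and to 2150 to 3523 in P2H2KO and 2425 to 3315 in P2H2WT. In such bulk libraries fewer cells of a type and less RNA per cell cannot be told apart.

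Among the 10 genes Bnip3 alone passed the test between genotypes, in the P2H2 line and in the mean of both lines. Averaged over the 2 lines, each set against its own controls, Bnip3 was 2.12-fold higher in the deficient libraries (95% interval 1.87 to 2.41), whereas the fold changes of the other 9 lay within intervals that nowhere went below 0.816 or above 1.22. The paralog Bnip3l, the receptor Fundc1, the kinase gene Pink1, the ATG8 genes and Sqstm1 were not called in any comparison.

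Bnip3 (ENSMUSG00000078566, chromosome 7, 138890836 to 138909519, minus strand; mm10, the build in the submitters' processing notes, is GRCm38, and gene coordinates are those of GENCODE M21) had 144 to 212 counts in the P2WT libraries and 323 to 406 in the P2KO libraries. Scaled to library size, P2WT replicates 3, 4, 7 and 10 were at 7.25, 5.82, 6.13 and 7.64 CPM. P2KO replicates 1, 5, 6 and 9 were at 12.1, 11.5, 16.05 and 12.4 CPM. All 4 P2KO libraries lay above all 4 P2WT libraries, and replicate 6, the P2KO library with the lowest erythroid and highest neutrophil sum, was the highest. The means were 13.01 ± 2.06 CPM (SD, n = 4) and 6.71 ± 0.873 CPM, which gave 0.96 on the log2 scale (SE 0.14, 95% interval 0.65 to 1.28). The unadjusted p was 6.68e-05, but the adjusted p of 0.102 (edgeR quasi-likelihood test, Benjamini-Hochberg over 13734 genes) did not pass 0.05, so in this line alone 0 of the 10 genes were called. Of all genes tested in the line, 0.0437% were called, all of them higher, while 0.859% lay higher and 2.25% in either direction without overlap. The call depended on the fit. With a spread shared over all 16 libraries the adjusted p was 0.00248, with the erythroid marker score (mean log2 CPM of the list) as a covariate 0.00608, without the low-count filter 0.00634 and with DESeq2 2.98e-06. The edgeR adjusted p was 0.0528 with upper-quartile scaling, 0.0711 with at least 10 counts in every library and 0.101 with RLE scaling. In the 8 edgeR fits that left out 1 library each it was 0.0651 to 0.396, past the threshold in 0 of them. With the m or f suffix of the titles as a covariate it was 0.309. Suffix m was on 3 P2KO and 2 P2WT libraries.

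In the other line the values were further apart. P2H2WT replicates 13, 14, 16 and 18 were at 8.77, 6.77, 7.74 and 8.20 CPM of Bnip3. P2H2KO replicates 11, 12, 15 and 17 were at 16.4, 19.8, 18.5 and 18.4 CPM. The lowest deficient library was thus well above the highest control, and replicate 15, with the lowest erythroid sum, was not apart from the other 3. Bnip3 rose in P2H2KO, with means of 18.3 ± 1.39 CPM against 7.87 ± 0.843 in the controls. On the log2 scale the change was 1.21 (SE 0.10, 95% interval 0.98 to 1.45, edgeR adjusted p 0.00233). It was the only one of the 10 genes called in this line, in which 0.0744% of 13435 genes were called, all higher, while 0.901% lay higher and 1.71% in either direction without overlap. Its call held in all 8 fits that left out 1 library each.

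Bnip3 in the deficient libraries lay above the controls without overlap in both lines, as did 0.199% of 14080 genes. The mean of the effects of the 2 lines was 1.08 on the log2 scale (SE 0.086) with an edgeR adjusted p of 4.39e-06, past the threshold in all 16 fits that left out 1 library. In this contrast 0.142% of 14080 genes were called higher and 0.0284% lower. Whether the increase depends on HIF2α was addressed by the difference of the effects, P2 minus P2H2. For Bnip3 this was -0.26 (SE 0.17, 95% interval -0.62 to 0.10, unadjusted p 0.146, edgeR adjusted p 0.999), and 0% of all genes were called in this contrast, with 1.51% at an unadjusted p under 0.05 (0 of the 10). The interval includes 0. It reaches 0.62 toward a larger change in the line labelled as lacking HIF2α and 0.10 toward a larger change in the P2 line. Both estimates use separate controls.

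**Figure D1:**
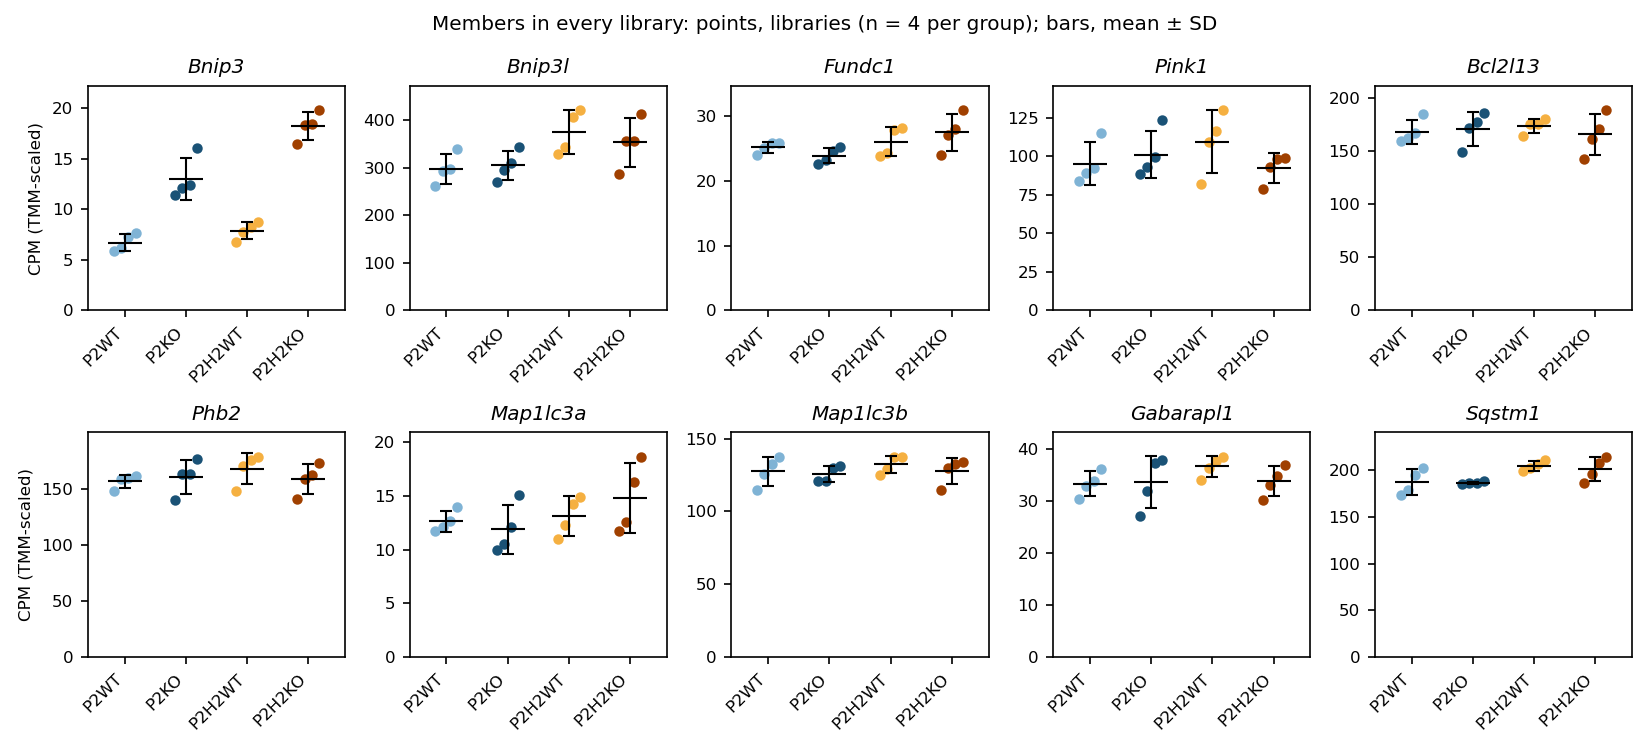
Levels of the 10 genes in every library, in CPM on the TMM-scaled library size, from 0. Points are libraries in rising order within a group (n = 4), bars the mean and SD. Bnip3 is the only panel in which both deficient groups lie wholly above their controls, at 11.5 to 16.05 CPM against 5.82 to 7.64 and at 16.4 to 19.8 against 6.77 to 8.77.

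Near-identical copies of Bnip3 had few counts. The processed pseudogene Gm16439, 98.9% identical to a Bnip3 transcript over 564 bases, had 0 to 1 counts per library, Gm9419 (95.4% identical) 0 to 3 and the antisense gene Gm45507, whose exons overlap Bnip3, 0 to 2. How many reads were dropped as shared with them was not recorded in the tables.

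Bnip3l (chromosome 14, 66985239 to 67008877) was the far more abundant of the 2 BNIP3-type receptors. It was at 270 to 343 CPM in P2KO and 261 to 338 in P2WT, and at 287 to 413 CPM in P2H2KO and 329 to 421 in P2H2WT, with overlap in both lines. On the log2 scale its changes were 0.047 (SE 0.10, 95% interval -0.18 to 0.28) and -0.087 (SE 0.13, 95% interval -0.38 to 0.21). A change of the size seen for Bnip3 lies outside both intervals, which are for the RNA of these mixed libraries and not for neutrophils alone. Within each library, where no scaling factor enters, Bnip3 counts were 1.72% to 2.62% of Bnip3l counts in P2WT and 3.34% to 5.95% in P2KO. In the other line they were 1.61% to 2.49% in P2H2WT and 3.98% to 6.44% in P2H2KO. Thus the share was higher in every deficient library of a line than in every control of that line. Its size also depends on Bnip3l, which followed the erythroid score (r 0.85 and 0.95 within the P2 and P2H2 lines, below). The highest shares, 5.95% and 6.44%, were those of P2KO replicate 6 and P2H2KO replicate 15, the libraries lowest in erythroid markers. The part of this mixture of RNA in the shares was not tested.

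The other 2 outer-membrane receptors gave overlapping groups. Fundc1 (chromosome X, 17556564 to 17572325) was at 22.6 to 25.2 CPM in P2KO and 24.1 to 25.9 in P2WT, and at 24.0 to 31.0 CPM in P2H2KO and 23.9 to 28.2 in P2H2WT. On the log2 scale this was -0.066 (SE 0.063) in the P2 line and 0.080 (SE 0.095) in the P2H2 line. Bcl2l13 (chromosome 6, 120836212 to 120892842) was at 149 to 186 CPM in P2KO, 160 to 185 in P2WT, 143 to 189 in P2H2KO and 164 to 180 in P2H2WT, or 0.032 (SE 0.084) and -0.068 (SE 0.093) on the log2 scale in the 2 lines. Exons of Bcl2l13 overlap those of Bid on the opposite strand. Bid had 1079 to 1921 counts per library, 32.0% of the summed Bcl2l13 count. Since use of strand is not given in the sources used here, reads of the 2 genes may not have been told apart and the Bcl2l13 values are uncertain. Phb2 (chromosome 6, 124712336 to 124716950), the inner-membrane receptor, was at 140 to 176 CPM in P2KO, 148 to 161 in P2WT, 141 to 173 in P2H2KO and 147 to 179 in P2H2WT. The P2 line gave 0.045 on the log2 scale (SE 0.076) and the P2H2 line -0.082 (SE 0.093). The lower end of Bcl2l13, Phb2 and Bnip3l among P2KO libraries was in each case replicate 6, and among P2H2KO libraries replicate 15, the 2 libraries lowest in erythroid markers.

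Pink1 (chromosome 4, 138313409 to 138326307) had the largest log2 fold change of these 9 genes between genotypes within a line, in the P2H2 line. P2H2KO replicates 11, 12, 15 and 17 were at 99.1, 93.3, 98.3 and 78.6 CPM. P2H2WT replicates 13, 14, 16 and 18 were at 109.5, 116.5, 129.95 and 81.7 CPM. Of the controls 3 lay above every P2H2KO library and replicate 18 lay below 3 of them. The log2 fold change was -0.25 (SE 0.14, 95% interval -0.56 to 0.073, unadjusted p 0.116, edgeR adjusted p 0.9999). In the P2 line Pink1 was at 88.5 to 123 CPM in P2KO and 84.1 to 115 in P2WT, a log2 fold change of 0.096 (SE 0.13). The difference of these effects was 0.33 (SE 0.20, 95% interval -0.10 to 0.76, unadjusted p 0.120), which did not pass the threshold (edgeR adjusted p 0.999).

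Sqstm1 (chromosome 11, 50199366 to 50210827), the adaptor gene, had overlapping groups in both lines. The 4 P2KO libraries were at 185 to 188 CPM against 174 to 202 in P2WT, and those of P2H2KO were at 186 to 215 CPM against 199 to 211 in P2H2WT. In log2 terms P2KO gave 0.0020 (SE 0.071) and P2H2KO -0.022 (SE 0.071), and the mean effect had a 95% interval of -0.11 to 0.078. Among the ATG8 genes, Map1lc3b (chromosome 8, 121590361 to 121598760) was at 114 to 138 CPM over all 16 libraries, Gabarapl1 (chromosome 6, 129533160 to 129542346) at 27.2 to 38.5 and Map1lc3a (chromosome 2, 155276297 to 155278073) at 9.98 to 18.7. Their log2 fold changes in P2KO were -0.013 (SE 0.074), 0.022 (SE 0.11) and -0.075 (SE 0.14). In P2H2KO they were -0.049 (SE 0.076), -0.12 (SE 0.082) and 0.18 (SE 0.16). The 95% intervals of Map1lc3b were -0.18 to 0.15 in P2KO and -0.22 to 0.12 in P2H2KO. Its promoter holds as many HIF core matches as that of Bnip3, with overlapping matches counted separately. Whether such matches bear on the levels was not tested. The pseudogene Gm6055, 99.7% identical to Map1lc3b over 378 bases, had 23 to 49 counts against 2906 to 3833 for Map1lc3b.

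**Figure D2:**
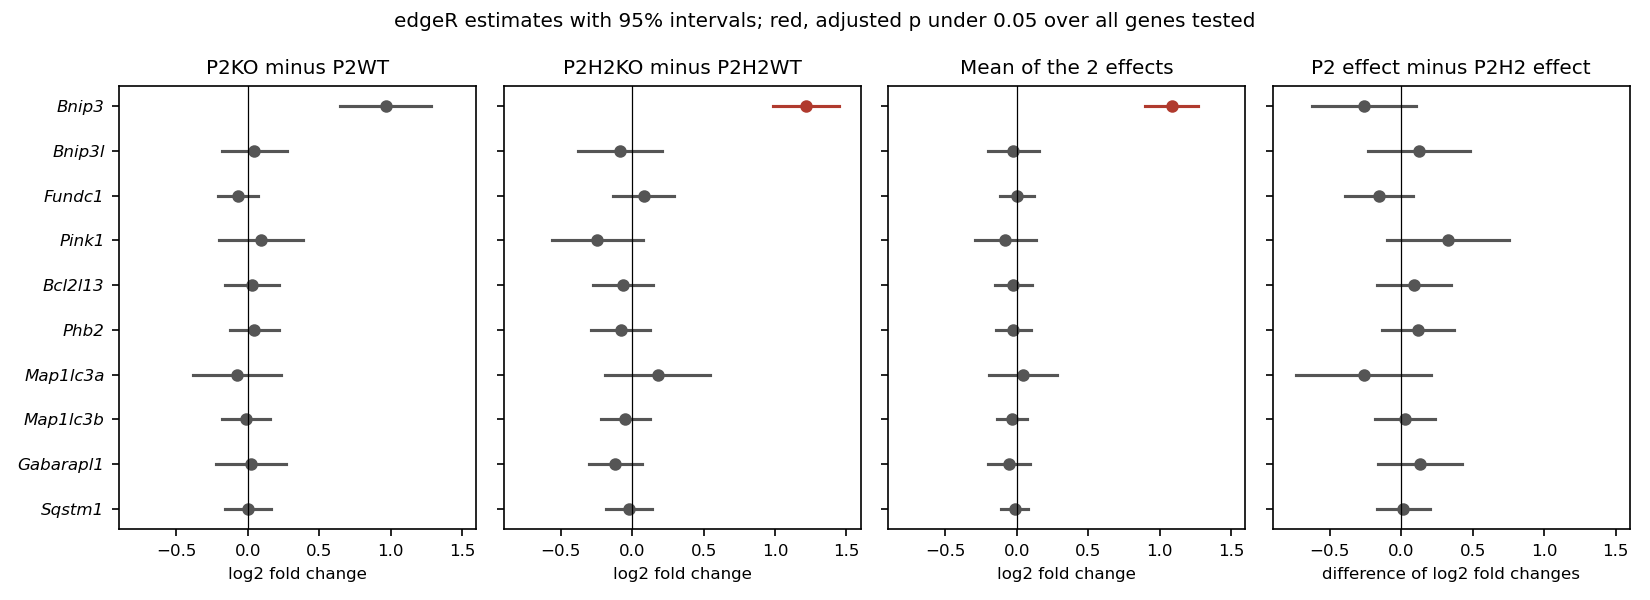
Log2 fold changes of the 10 genes with 95% intervals from edgeR in the P2 line, the P2H2 line, their mean and their difference. Bnip3 stands at 0.96, 1.21 and 1.08 in the first 3 panels, red where the adjusted p is under 0.05, while all intervals of the other 9 genes include 0.

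Without Bnip3, the median log2 fold change of the 9 genes was 0.022 in P2KO (6 positive, 3 negative), beside a median of 0.020 over all genes tested. In P2H2KO it was -0.068 (2 positive, 7 negative), beside 0.0010 over all genes. At an unadjusted p under 0.05 the count was 0 of the 9 in each line, where 3.49% and 2.63% of all genes passed. In the P2 line the 95% intervals of the 9 genes reached down to 0.766-fold (Map1lc3a) and up to 1.31-fold (Pink1). In the P2H2 line they reached down to 0.676-fold (Pink1) and up to 1.46-fold (Map1lc3a). The narrowest in the P2 line was that of Fundc1, from 0.866-fold to 1.05-fold.

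Between the control groups, P2WT and P2H2WT, 0 of the 10 genes were called (edgeR), where 0.227% of 14080 genes were. Bnip3l came closest, at 297 ± 31.6 CPM in P2WT and 375 ± 45.6 in P2H2WT, with P2WT replicate 4 at 338 CPM above P2H2WT replicate 18 at 329. Its log2 fold change was -0.34 (SE 0.12, unadjusted p 0.0124, edgeR adjusted p 0.291), the only one of the 10 with an unadjusted p under 0.05, which 10% of all genes had. With the erythroid score as a covariate it was -0.26 and passed (edgeR adjusted p 0.0300), in a fit that called 487 genes in place of 32. The groups overlapped for all 10 genes, where 5.18% of all genes lay higher in P2WT without overlap, 2.59% lower and 7.77% in either direction. All 10 genes had a negative log2 fold change here, from -0.34 to -0.046, where 48.3% of all genes had a positive one. The 8 endothelial and stroma markers, all with counts in every library, also set these groups apart, at 503 to 1298 CPM in P2WT and 215 to 333 in P2H2WT, and their part in the values was not tested. The line, the table and the making of the libraries cannot be told apart in this comparison.

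Levels of different genes were compared as CPM per kilobase of exon, over all 16 libraries. With all annotated exons as the length, Bnip3l was highest at 86.1 ± 12.9 CPM per kilobase (SD, n = 16), followed by Sqstm1 at 58.1 ± 3.58, Phb2 at 43.3 ± 3.24 and Pink1 at 37.2 ± 5.69. Bcl2l13 (18.7 ± 1.42), Map1lc3b (17.08 ± 1.0001) and Gabarapl1 (17.06 ± 1.62) formed a middle group, and Map1lc3a (11.1 ± 1.94) and Fundc1 (10.9 ± 0.950) a low one. Bnip3 was lowest at 5.06 ± 2.16, and even in P2H2KO reached only 8.07 ± 0.614 CPM per kilobase, below Fundc1 in all 16 libraries. Map1lc3b was above Gabarapl1 in 10 of 16 libraries and Map1lc3a above Fundc1 in 9 of 16. With this length these neighbours thus did not differ beyond their spread. Annotated exons include rare long forms. With the longest coding transcript as the length, an alternative chosen after the lengths were seen, Phb2 was highest (122 ± 9.15) before Bnip3l (102 ± 15.3), Map1lc3b moved above Pink1, and Bnip3 stayed lowest (6.53 ± 2.79). The middle and low groups did not hold with this length. Map1lc3b (lowest library 43.5) then lay wholly above Gabarapl1 (highest library 21.2), and Fundc1 was above Map1lc3a in 14 of 16 libraries.

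**Figure D3:**
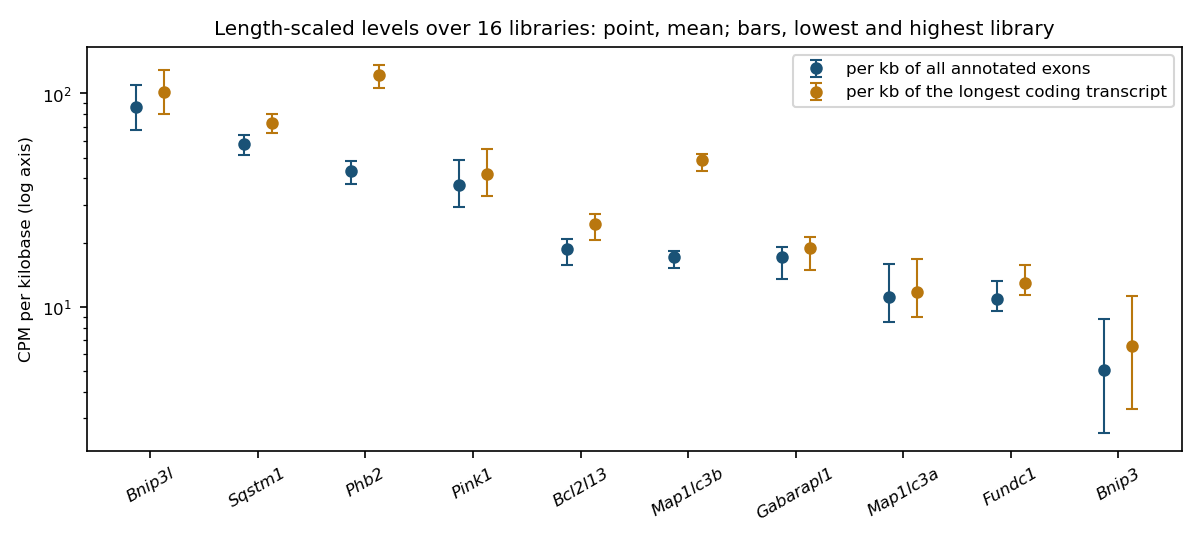
Mean CPM per kilobase of the 10 genes over 16 libraries on a log axis, with bars from the lowest to the highest library, for both definitions of length. Bnip3l is near the top and Bnip3 lowest with both, while Phb2 shifts from 43.3 to 122 and Map1lc3b from 17.1 to 48.8.

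The genes also varied among libraries of the same group. Each gene's log2 CPM was related over libraries to the erythroid and the neutrophil score, the mean log2 CPM of the respective markers. These are 22 relations with permutation tests (two-sided, p adjusted by Benjamini-Hochberg over the 22), and all points share the library and its scaling. Except for Bnip3, libraries were permuted across all groups with no group or line means removed, so p values include differences between groups. Bcl2l13 followed the erythroid score most closely, with Pearson r 0.93 and Spearman rho 0.86 over 16 libraries (permutation p 1e-05, the smallest the permutations can give, and 7e-05, adjusted 0.00011 and 0.00143). Without P2KO replicate 6 and P2H2KO replicate 15, the libraries farthest from the median score, r was 0.84, and within the P2 and P2H2 lines it was 0.90 and 0.96 (n = 8 each). Values within lines, here and below, include the libraries left out. Phb2 had r 0.86 and rho 0.84 (permutation p 4e-05 and 0.00013, adjusted 0.000293 and 0.00143), r 0.72 without the 2 libraries, and 0.82 and 0.90 within the lines. Bnip3l had r 0.71 and rho 0.73 (permutation p 0.00198 and 0.00199, adjusted 0.00726 and 0.00876), 0.66 without them, and 0.85 and 0.95 within the lines. These 3 receptor genes were thus higher in libraries with a higher erythroid score, in both lines. For Bcl2l13 this is uncertain, because reads of Bid may not have been told apart, as given above.

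Map1lc3b had r 0.73 and rho 0.69 with the erythroid score (permutation p 0.00157 and 0.00418, adjusted 0.00726 and 0.0131), 0.54 without the 2 libraries, and 0.56 and 0.90 within the lines. Gabarapl1 had r 0.68 and rho 0.52 (permutation p 0.00353 and 0.0400, adjusted 0.00971 and 0.0975), but 0.38 without the 2 libraries, so its relation rests on them. It was 0.71 and 0.74 within the lines, with these libraries included. Fundc1 and Map1lc3a ran the other way. Fundc1 had r -0.70 and rho -0.72 (permutation p 0.00271 and 0.00248, adjusted 0.00852 and 0.00909), -0.68 without the 2 libraries, and -0.64 and -0.95 within the lines. Map1lc3a had r -0.73 and rho -0.76 (permutation p 0.00166 and 0.00096, adjusted 0.00726 and 0.00528), -0.66 without them, and -0.79 and -0.81 within the lines.

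With the neutrophil score, Map1lc3a had r 0.89 and rho 0.81 (permutation p 1e-05, again the smallest possible, and 0.00029, adjusted 0.00011 and 0.00213). Without P2KO replicate 6 and P2H2KO replicate 17, the farthest on that score, r was 0.86, and within the lines it was 0.97 and 0.87. Bcl2l13 had r -0.58 and rho -0.45 with this score (permutation p 0.0193 and 0.0802, adjusted 0.0471 and 0.131), and -0.45 without the same libraries. Pink1 and Sqstm1 had adjusted permutation p of 0.0975 or more with both scores. The scores themselves ran against each other (r -0.60 over 16 libraries). Because Bnip3 splits by genotype, it was related to the scores only within the 8 deficient and the 8 control libraries. With the erythroid score r was -0.50 and -0.13 (rho -0.55 and -0.14, exact permutation p of r 0.224 and 0.750 and of rho 0.171 and 0.752, adjusted 0.251 or more). Without P2WT replicate 4 and P2H2WT replicate 14 the control value turned to 0.73. With the neutrophil score r was 0.69 and 0.74 (rho 0.43 and 0.83, exact permutation p of r 0.0656 and 0.0391 and of rho 0.299 and 0.0154, adjusted p of r 0.111 and 0.0717 and of rho 0.387 and 0.0423). Without the 2 libraries farthest on that score r was 0.56 and 0.91. With the mean of each line taken out of both values, an alternative chosen after the data were seen, r in the deficient and control libraries was -0.70 and -0.48 with the erythroid score and 0.65 and 0.69 with the neutrophil score (n = 8 each, not tested). With the erythroid score as a covariate the log2 fold change of Bnip3 was 1.01 in P2KO and 1.19 in P2H2KO.

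**Figure D4:**
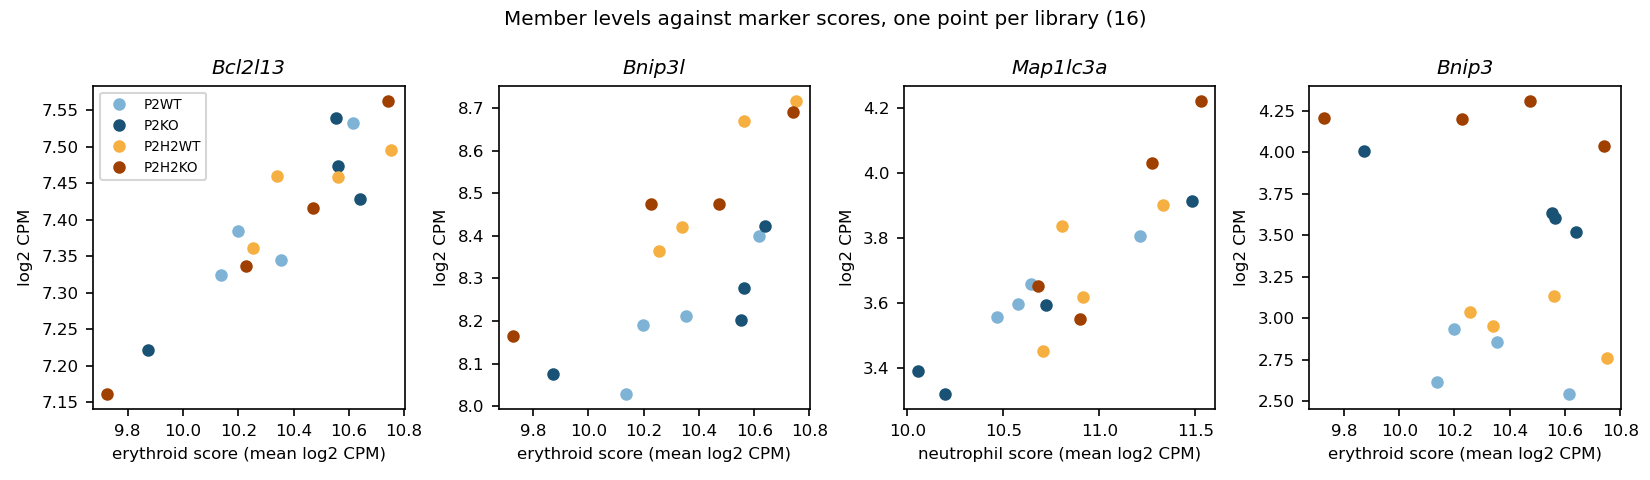
Log2 CPM of Bcl2l13, Bnip3l and Bnip3 against the erythroid score, and of Map1lc3a against the neutrophil score, 1 point per library, coloured by group. Bcl2l13 rises with the erythroid score across all groups (r 0.93), while every deficient library lies above every control for Bnip3. Reads of Bid may not have been told apart from those of Bcl2l13.

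Genes with the most similar pattern to each member were taken from 9572 genes by Pearson r of log2 CPM over the 16 libraries, as a description. For Bnip3 these were Egln3 (r 0.97), a prolyl hydroxylase of the PHD2 family, the glycolytic enzyme genes Tpi1 (0.96) and Pfkl (0.92), Apba3 (0.92) and the lactate dehydrogenase gene Ldha (0.89). After the group means were taken out, r was 0.75 for Egln3 and 0.65 for Ldha, but 0.38 for Tpi1 and -0.03 for Pfkl. For Bnip3l they were Dcaf12 (0.92), the glutathione peroxidase gene Gpx1 (0.91), Snx3 (0.89), Ccndbp1 (0.88) and Ppp1cb (0.87), with r of 0.81 to 0.96 after removal of group means. No gene was on both lists. Ccndbp1 (0.92) also led for Map1lc3b, before Sh3glb1 (0.91) and the ATG8 gene Gabarapl2 (0.90). Bcl2l13 was most like Slc38a5 (0.97), Ces2g (0.96) and Lpcat3 (0.96), and Phb2 most like Lancl2 (0.96), the elongation factor gene Eef1g (0.96) and Ran (0.94). Map1lc3a was most like Bin3 (0.97), the lysosomal sialidase gene Neu1 (0.96) and Rab2a (0.96), Fundc1 most like Slc44a2, Pimreg and the ubiquitin ligase gene Siah2 (0.93 each), and Gabarapl1 most like Ndufv1 (0.93), Ptpa (0.89) and Polr1c (0.88). Sqstm1 was most like Adipor1 (0.92), Wbp2 (0.90) and Tinagl1 (0.88). The closest genes to Pink1 reached only 0.73 for Pde12, 0.72 for Ubox5 and 0.72 for Cd99l2. Among the members themselves the highest r were those of Bcl2l13 with Gabarapl1 (0.81) and Phb2 (0.80) and of Phb2 with Gabarapl1 (0.80), and the lowest that of Fundc1 with Bcl2l13 (-0.69).

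The rest of the pathway was taken from 6 lists of 85 genes, of which 83 were tested. In P2KO and in P2H2KO 0 were called (edgeR), where 0.0437% and 0.0744% of all genes were, and 0 had an unadjusted p under 0.05, where 3.49% and 2.63% of all genes did. For the mean of the effects 0 were called and 3 had such a p, beside 3.72% of all genes. The median log2 fold change of the 83 genes was 0.0090 in P2KO and -0.012 in P2H2KO. The 3 genes with an unadjusted p under 0.05 for the mean of the effects were Phb, Ctsb and Atg16l1. Phb, which encodes the partner of PHB2 in the prohibitin complex, was at 14.2 ± 0.679 CPM in P2KO and 15.7 ± 0.348 in P2WT without overlap, and at 13.8 ± 0.634 in P2H2KO and 15.5 ± 1.52 in P2H2WT with overlap. In the P2 line 1.39% of 13734 genes lay lower without overlap. The mean effect on Phb was -0.16 (SE 0.051, unadjusted p 0.00716, edgeR adjusted p 0.681). Ctsb, which encodes the lysosomal protease cathepsin B, had a mean log2 fold change of -0.14 (SE 0.059, unadjusted p 0.0360, edgeR adjusted p 0.9998). Atg16l1, of the complex that attaches ATG8 proteins to membranes, had 0.11 (SE 0.051, unadjusted p 0.0415, edgeR adjusted p 0.9998).

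By list, the other receptors and adaptors (10 of 11 tested) had medians of -0.0060 in P2KO and -0.018 in P2H2KO, and the outer-membrane receptor gene Fkbp8 was at 177 ± 3.601 CPM in P2KO and 178 ± 3.10 in P2WT. The PINK1 and Parkin pathway (26 of 27 tested) had medians of 0.018 and -0.032. In this list Parl, the protease that cleaves PINK1, had a mean log2 fold change of -0.063 (SE 0.074) and Dnm1l, the GTPase that divides mitochondria, 0.042 (SE 0.044). The 2 remaining ATG8 genes, Gabarap and Gabarapl2, had mean log2 fold changes of -0.025 (SE 0.078) and -0.038 (SE 0.059). Conjugation genes (11 of 11 tested) had medians of 0.042 and 0.048, initiation genes (19 of 19) 0.036 and 0.0060, and fusion and lysosome genes (15 of 15) -0.034 and 0.030. The initiation genes with the smallest p were Ulk2, a kinase gene, with a mean log2 fold change of -0.11 (SE 0.058, unadjusted p 0.0791), Pik3r4 with -0.087 (SE 0.049) and Atg2a with -0.064 (SE 0.056). Conjugation genes after Atg16l1 were Atg10 with -0.12 (SE 0.12) and Atg3 with 0.055 (SE 0.093), and lysosome genes after Ctsb were Ctsd with -0.095 (SE 0.053) and Lamp1 with -0.096 (SE 0.11). Nipsnap2 had -0.024 (SE 0.071) and Vdac3 -0.055 (SE 0.047). Over all 83 genes the difference of the effects gave 0 calls (edgeR) and 1 unadjusted p under 0.05, where 1.51% of all genes had one. The controls of the 2 lines gave 0 calls (edgeR) and 4 such p, where 0.227% of all genes were called and 10% had one.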

How the data were processed

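The authors deposited 2 tables of raw counts per Ensembl gene, 1 for each line, with 8 libraries each and no normalization, per the file headers and values. HTSeq and mm10 are named in the submitters' processing notes, with no version. The aligner, annotation release and strand setting are not given in the sources used here. Groups and replicate numbers came from the library titles. Symbols were matched for 49326 of 49585 identifiers with GENCODE M21, and unmatched identifiers held 0.00714% of counts.

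Low counts were removed by filterByExpr (edgeR 4.0.16, R 4.3.3). Remaining genes were scaled by TMM and tested with glmQLFit (robust) and glmQLFTest, two-sided, with Benjamini-Hochberg adjustment over all genes tested and a threshold of 0.05. Each line was fitted with its own 8 libraries. The mean and the difference of the effects and the comparison of controls came from a fit of all 16. Intervals of log2 fold changes (95%) used the quasi-likelihood F and its degrees of freedom. CPM values were computed from the deposited counts. Marker scores are mean log2 CPM with a prior count of 2. Permutation tests used numpy 2.4.6 and scipy 1.17.1, with 100000 permutations for 16 libraries and all pairings for 8. Copies were sought with blastn on GENCODE M21 transcripts, at 90% identity over at least 200 bases. The script was tested on simulated counts. The 24 pairs of libraries within groups differed by more than sampling noise (lowest chi-square over its degrees of freedom 10.6).

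Named genes were the 10 members, the genes of the 6 pathway lists called in any comparison or with the smallest p in the mean of the effects (up to 3 per list), and the 5 genes most similar to Bnip3 and Bnip3l and the 3 most similar to each other member, among genes with a mean of at least 5 CPM, predicted genes left out. The members and lists were chosen with earlier results of these data known. Alternatives were DESeq2 1.42.0, RLE or upper-quartile factors, a minimum of 10 counts per library or no filter, the title suffix or erythroid score as a covariate, the fit of all 16 libraries, and leaving out each library.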

Additional observations from a re-analysis of the deposited data

Results flagged for a closer look

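Of the 40 sets of 4 libraries (10 genes in 4 groups), 1 held a library far from the other 3: Phb2 in P2WT replicate 10 was at 148 CPM, against 159 to 161 CPM in the other 3 P2WT libraries. Chance alone flags about 1 in 20 such sets.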

How the results depend on the processing

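Bnip3 kept its direction in every alternative tried, with log2 fold changes of 0.95 to 1.01 in P2KO and 1.19 to 1.22 in P2H2KO over the 8 alternative settings, and of 0.85 (without P2KO replicate 6) to 1.04 and 1.15 to 1.27 when single libraries were left out. The count of members called in P2KO moved from 0 to 1, Bnip3, with no filter, with DESeq2, with the erythroid score as a covariate and in the fit of all 16 libraries. Its adjusted p there ranged from 2.98e-06 to 0.309 over settings and from 0.0651 to 0.396 without single libraries. The count between the controls moved from 0 to 1, Bnip3l, with the erythroid covariate. The cause of these moves was not tested. Over all genes, calls ranged from 4 to 23 in P2KO (6 as reported), 6 to 42 in P2H2KO (10), 15 to 65 for the mean of the effects (24) and 0 to 487 between the controls (32), with the highest from DESeq2 except between controls, where it came with the erythroid covariate. P2KO had 10 lower calls of 23 with DESeq2 and 0 of 6 as reported. Leaving out single libraries gave 0 members in P2KO, 1 in P2H2KO, 1 for the mean of the effects, 0 for their difference and 0 between the controls, as with all libraries. The values whose sign turned were all uncalled. With the erythroid covariate log2 values turned to Gabarapl1 -0.022 (in P2KO), Bnip3l 0.0092 (in P2H2KO), Sqstm1 0.0037 (in P2H2KO), Fundc1 -0.015 (mean of the effects), Map1lc3b -0.026 (difference), Sqstm1 -0.0098 (difference) and Bcl2l13 0.0053 (between controls). With RLE factors log2 values turned to Sqstm1 -0.0077 (in P2KO). Without the filter log2 values turned to Sqstm1 -0.0020 (in P2KO) and Fundc1 -0.0075 (mean of the effects). With DESeq2 log2 values turned to Sqstm1 -0.0077 (in P2KO). In the fit of all 16 libraries log2 values turned to Sqstm1 -0.0087 (in P2KO). With at least 10 counts in every library log2 values turned to Fundc1 -0.0034 (mean of the effects). With the suffix covariate log2 values turned to Map1lc3b -0.018 (difference). Leaving out single libraries, sign changes in P2KO gave ranges of Bcl2l13 -0.012 to 0.094, Bnip3l -0.014 to 0.12, Gabarapl1 -0.040 to 0.11, Map1lc3a -0.21 to 0.0010, Map1lc3b -0.062 to 0.027, Phb2 -0.0030 to 0.11, Pink1 -0.017 to 0.20 and Sqstm1 -0.035 to 0.045. Leaving out single libraries, sign changes in P2H2KO gave ranges of Bnip3l -0.17 to 0.0021, Map1lc3b -0.076 to 0.0025 and Sqstm1 -0.051 to 0.016. Leaving out single libraries, sign changes for the mean of the effects gave ranges of Bcl2l13 -0.057 to 0.0093, Bnip3l -0.068 to 0.018, Fundc1 -0.030 to 0.031, Map1lc3a -0.023 to 0.093, Phb2 -0.052 to 0.0061 and Sqstm1 -0.036 to 0.0038. Leaving out single libraries, sign changes for their difference gave ranges of Map1lc3b -0.033 to 0.060 and Sqstm1 -0.034 to 0.052. Leaving out single libraries, sign changes between controls gave ranges of Map1lc3a -0.13 to 0.013. No paired analysis was possible because the groups share no replicate number. The lowest count of any of the 10 genes in a library was 144, for Bnip3 in P2WT, and the shares of counting error and of the number of libraries in the spread were not compared.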
